A study of Mus musculus with 6 samples.

Results

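Heat shock proteins are chaperones that hold, fold or disaggregate other proteins. HSP70 proteins work with J-domain partners, which bring substrates and speed ATP hydrolysis, and with nucleotide exchange factors, which let the substrate go. HSP90 proteins take over partly folded clients such as steroid receptors and kinases, small heat shock proteins hold unfolded chains, and the HSP60 and HSP10 pair forms a folding chamber in mitochondria. Heat shock factor 1 (HSF1) raises transcription of the inducible members when unfolded protein accumulates, through promoter elements built from inverted GAA units.

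The 10 genes considered here were chosen by name: Hspa8, Hspa1a, Hspa1b, Hsp90aa1, Hsp90ab1, Hsph1, Dnajb1, Hspb1, Hspd1 and Hspe1. They were matched by symbol to the 19594 genes with counts. A row was found for 9 of the 10. Hspa1b had none and is described by sequence only. The samples were livers of male mice of C57BL6 background aged 2 months, in 3 libraries from SHP-/- mice and 3 from wild-type (WT) mice. SHP is the nuclear receptor encoded by Nr0b2, a repressor best known for feedback control of bile acid synthesis; the labels give no other allele or treatment and do not say which part of the gene was deleted. RNA with a 5′ cap was pulled out with EIF4E, a protein that binds the cap, and sequenced as paired 36-base reads. Levels are those of the RNA kept by this step, which need not all be capped.

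Library totals were 4494353, 5109217 and 7225842 counts in SHP-/- livers and 5798186, 4982530 and 6155064 counts in WT livers. Nr0b2 had 6.62, 7.07 and 10.3 CPM (counts scaled to library size) in SHP-/- libraries 1, 2 and 3, against 17.7, 12.3 and 13.5 CPM in WT libraries 1, 2 and 3. It was lower in SHP-/- livers by limma voom (log2 difference -0.81 ± 0.25 SE, adjusted p = 0.0442), and this call was kept in 1 of 6 fits that left out 1 library. With all 6 libraries it was lost with library totals (limma voom adjusted p = 0.0536) and with no filter (adjusted p = 0.0667), at a log2 difference of -0.81 in both. The tissue label was checked against hepatocyte markers, which summed to 99390 to 104860 CPM in SHP-/- livers and 90641 to 114225 CPM in WT livers. Lymphocyte and neutrophil markers summed to at most 3.65 CPM in any library and pancreatic and adipocyte markers, of which 4 of 10 had counts, to at most 4.09 CPM. Lanes held 3 samples each, but which ones is not stated, and a lane effect and a genotype effect cannot be told apart.

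None of the heat shock genes met the test for a difference between the genotypes, yet all 9 genes shared a rank order of the SHP-/- libraries. SHP-/- library 2 was the highest and SHP-/- library 3 the lowest of the 3 SHP-/- libraries for 9 of 9 genes, an order found in 15.4% of all 11794 genes tested. The size of the differences varied by gene. SHP-/- libraries 1 and 2 were nearly tied for Hspd1 (216 and 224 CPM) and Hspe1 (54.4 and 56.6 CPM). For 7 of 9 genes SHP-/- libraries 1 and 2 lay above every WT library while SHP-/- library 3 lay below the highest WT library, against 5.30% of all genes tested. The 9 genes summed to 1691, 2074 and 1138 CPM in SHP-/- libraries 1, 2 and 3, against 1366, 1612 and 1511 CPM in WT libraries 1, 2 and 3. In bulk liver, fewer cells of a type and less RNA per cell cannot be told apart.

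**Figure D1:**
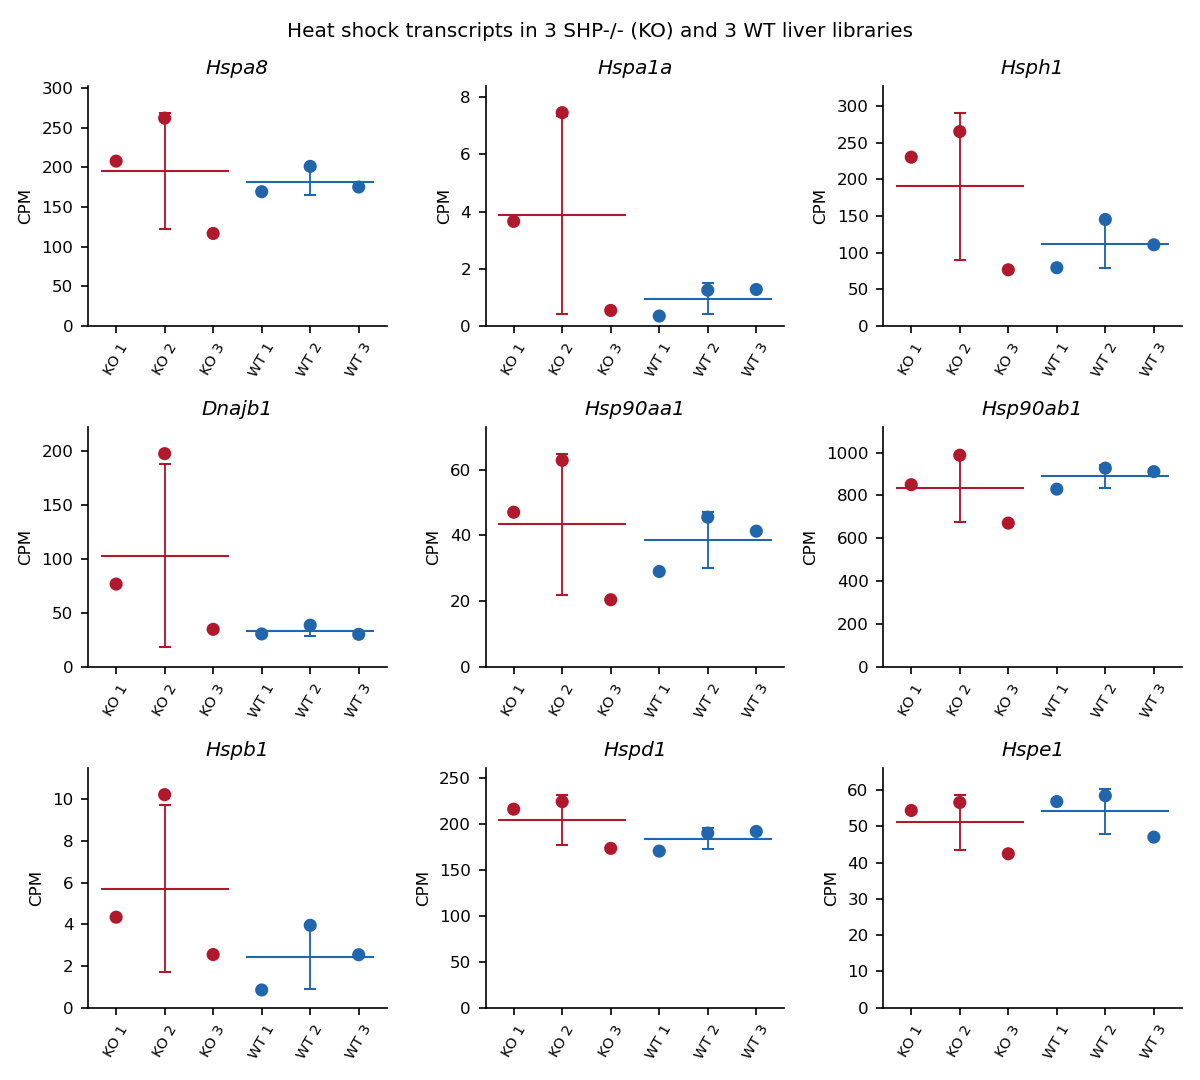
Level of each of the 9 heat shock genes with a row in CPM (vertical axes, linear, each from 0) in 3 SHP-/- (KO, red) and 3 WT (blue) libraries; points are libraries, horizontal lines group means and bars the SD (n = 3). SHP-/- library 2 is the highest and SHP-/- library 3 the lowest red point in all 9 panels.

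The constitutive HSP70 of the cytosol, Hspa8 (also called Hsc70; chromosome 9, 40609067 to 40613283, + strand, mm9), folds newly made proteins and takes part in uncoating of clathrin vesicles. It had 208, 262 and 117 CPM in SHP-/- libraries 1, 2 and 3, against 169, 201 and 175 CPM in the WT libraries. The first 2 SHP-/- libraries were above all WT libraries and the third was below them all, so the groups overlapped around near-equal means of 196 ± 73.6 CPM in SHP-/- livers and 182 ± 17.0 CPM in WT livers (SD, n = 3 each). The log2 difference, SHP-/- minus WT, was 0.02 ± 0.22 (SE; 95% interval -0.44 to 0.48; limma voom adjusted p = 0.962). Differences anywhere within this interval are compatible with these libraries, so equal levels were not shown.

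The inducible HSP70, Hspa1a, is nearly silent in unstressed tissue and is a classic readout of HSF1 activity. Its row (chromosome 17, 35106945 to 35108873, - strand, mm9) held 16, 38 and 4 counts in SHP-/- libraries 1, 2 and 3, against 2, 6 and 8 counts in the WT libraries, or 3.65, 7.46 and 0.537 CPM against 0.341, 1.25 and 1.27 CPM. SHP-/- libraries 1 and 2 stood above every WT library, whereas SHP-/- library 3 lay between the WT values. It was below the filter on low counts and was not tested there; with no filter the log2 difference was 1.24 ± 0.90 (limma voom adjusted p = 0.482). The row is uncertain for more reasons than its low counts. Its identifier, ENSMUSG00000067283, is not the one a later annotation gives Hspa1a, ENSMUSG00000091971, whose transcript was used for the share below. Its interval lies wholly inside that of AC087117.4 on the opposite strand, which had 13.0, 20.8 and 4.16 CPM in SHP-/- livers and 1.54, 11.2 and 3.49 CPM in WT livers, and the neighbouring copy Hspa1b shares 62.3% of the 36-base windows of the Hspa1a transcript.

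Hsph1, the HSP110 protein that acts as a nucleotide exchange factor of HSP70 and helps to dissolve aggregates (chromosome 5, 150416862 to 150438951, - strand, mm9), had 230, 265 and 76.5 CPM in SHP-/- libraries 1, 2 and 3. The WT libraries had 79.3, 145 and 111 CPM. SHP-/- libraries 1 and 2 exceeded all WT libraries and SHP-/- library 3 was below all of them. The group means were 191 ± 101 CPM in SHP-/- livers and 112 ± 33.0 CPM in WT livers (SD, n = 3 each), with a log2 difference of 0.61 ± 0.36 (limma voom adjusted p = 0.271). Without SHP-/- library 3 the log2 difference was 1.20 ± 0.18 (limma voom adjusted p = 0.00077), and without SHP-/- library 2 it was 0.27 ± 0.33 (adjusted p = 0.64).

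Dnajb1, the HSP40 protein that hands substrates to HSP70 and restrains HSF1 (chromosome 8, 86132172 to 86135801, + strand, mm9), had 76.5, 197 and 34.6 CPM in SHP-/- libraries 1, 2 and 3. The WT libraries held 30.4, 38.5 and 30.0 CPM, a range that contained SHP-/- library 3 and lay below SHP-/- libraries 1 and 2. The mean was 103 ± 84.4 CPM in SHP-/- livers and 32.9 ± 4.78 CPM in WT livers (SD, n = 3 each). The log2 difference of 1.26 ± 0.47 (95% interval 0.25 to 2.27), a fitted ratio of 2.40, had an unadjusted p of 0.0178, the only member under 0.05, and an adjusted p of 0.0877 over all genes by limma voom. Without SHP-/- library 3 the log2 difference was 1.93 ± 0.29 (limma voom adjusted p = 0.00068), and without SHP-/- library 2 it was 0.60 ± 0.26 (adjusted p = 0.146).

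The HSP90 pair differed in level and in spread. Hsp90ab1, the constitutive HSP90 (chromosome 17, 45704724 to 45710220, - strand, mm9), had 850, 987 and 671 CPM in SHP-/- libraries 1, 2 and 3, against 829, 927 and 911 CPM in the WT libraries, with a log2 difference of -0.11 ± 0.13 (limma voom adjusted p = 0.613). Hsp90aa1, the more inducible HSP90 (chromosome 12, 111928815 to 111940938, - strand, mm9), had 47.0, 62.8 and 20.4 CPM in the SHP-/- libraries, against 29.0, 45.5 and 41.3 CPM in the WT libraries. SHP-/- libraries 1 and 2 were above every WT library and SHP-/- library 3 was below every WT library, and the log2 difference was -0.02 ± 0.32 (limma voom adjusted p = 0.971). Per kilobase of exon, Hsp90aa1 stood at 0.0422, 0.0485 and 0.0232 of the level of Hsp90ab1 in SHP-/- libraries 1, 2 and 3, and at 0.0267, 0.0375 and 0.0346 of it in the WT libraries.

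Hspb1, the small heat shock protein HSP25 in the mouse (chromosome 5, 136363789 to 136365433, + strand, mm9), was scarce, with 4.34, 10.2 and 2.55 CPM in SHP-/- libraries 1, 2 and 3 and 0.853, 3.95 and 2.54 CPM in the WT libraries. SHP-/- library 3 lay inside the WT range. The log2 difference was 1.13 ± 0.61 (95% interval -0.19 to 2.44; limma voom adjusted p = 0.235), and the lowest library held 5 counts, for which counting alone gives a relative error of at least 44.7%, and more where both mates of a pair were counted. The log2 difference was 0.52 without WT library 1, 0.62 without SHP-/- library 2 and 1.74 without SHP-/- library 3, and the limma voom adjusted p lay between 0.0536 and 0.593 in the 6 fits without 1 library.

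The mitochondrial pair Hspd1 (HSP60; chromosome 1, 55134679 to 55145087, - strand, mm9) and Hspe1 (HSP10; chromosome 1, 55144976 to 55148151, + strand, mm9) is transcribed in opposite directions from a shared promoter. Hspd1 had 216, 224 and 174 CPM in SHP-/- libraries 1, 2 and 3, against 171, 190 and 192 CPM in the WT libraries, a log2 difference of 0.14 ± 0.12 (limma voom adjusted p = 0.447). Hspe1 had 54.4, 56.6 and 42.4 CPM in the SHP-/- libraries, against 56.8, 58.4 and 47.0 CPM in the WT libraries, a log2 difference of -0.10 ± 0.14 (limma voom adjusted p = 0.688). Both pairs of ranges overlapped, and these were the genes with the smallest ratio of the highest to the lowest SHP-/- library, 1.29 for Hspd1 and 1.33 for Hspe1. The ratio of Hspd1 to Hspe1, in CPM per kilobase, was 2.14, 2.14 and 2.20 in SHP-/- libraries 1, 2 and 3, against 1.62, 1.75 and 2.20 in the WT libraries. The rows of the pair overlap by 112 bases, and no source used here says how reads from that stretch were assigned.

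Of the 8 genes tested, 0 were higher and 0 were lower in SHP-/- livers by limma voom at an adjusted p under 0.05, with 1 at an unadjusted p under 0.05, and limma trend also made 0 calls. Over all genes tested, 7.58% were higher and 6.94% were lower, and 3606 of 11794 had an unadjusted p under 0.05. The median log2 difference of the 8 genes was 0.08, against -0.01 over all genes tested. For all 9 genes with a row the 2 groups of libraries overlapped, whereas they did not overlap for 35.1% of all genes tested. The pooled log2 ratios in the authors' deposited table, which carry no replicate error, were 1.84 for Hspa1a, 1.64 for Dnajb1, 1.16 for Hspb1 and 0.78 for Hsph1, and lay between -0.08 and 0.17 for the other 5 genes. Without SHP-/- library 3, the fit called 2 of the 8 genes, Hsph1 and Dnajb1. For calls over all genes, only the range over the fits without 1 library is given, at the end, so this count has no share of the same fit beside it. In that fit 6 of 8 had an unadjusted p under 0.05, against 3262 of all 11794 genes tested. Without SHP-/- library 2 the fit called 0, and 1 had an unadjusted p under 0.05, against 3175 of 11794. SHP-/- library 3 was the lowest and library 2 the highest SHP-/- library for all 9 genes. Leaving them out therefore moves the SHP-/- means up and down in any case.

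**Figure D2:**
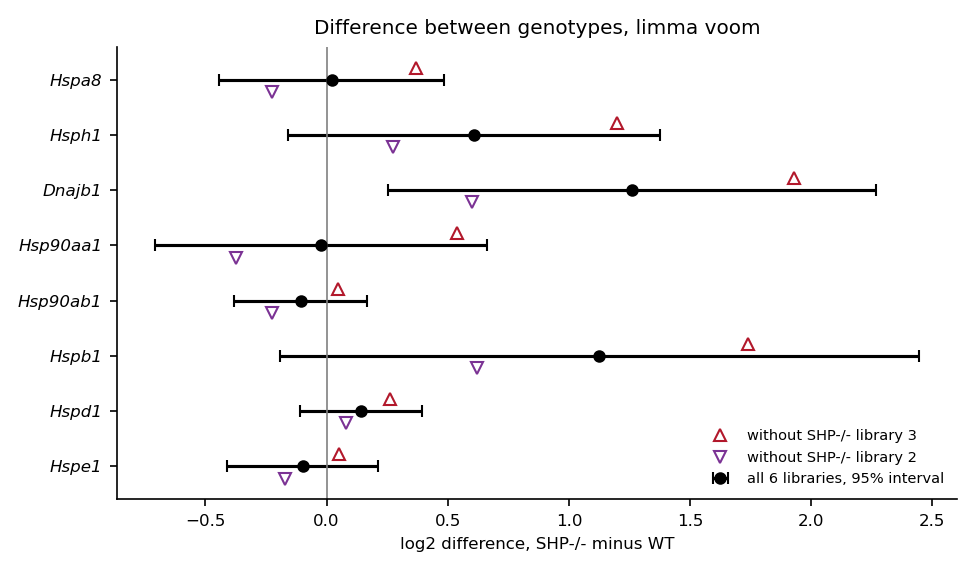
Log2 difference, SHP-/- minus WT (horizontal axis), of the 8 tested heat shock genes by limma voom. Black points with 95% intervals use all 6 libraries, red upward triangles leave out SHP-/- library 3 and purple downward triangles leave out SHP-/- library 2; for Dnajb1 the values are 1.26, 1.93 and 0.60.

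The spread among SHP-/- libraries was set against that of all genes tested, whose median SD of log2 CPM was 0.21 in SHP-/- livers and 0.21 in WT livers. In SHP-/- livers the SD was 1.26 for Dnajb1, 1.00 for Hspb1, 0.98 for Hsph1, 0.84 for Hsp90aa1 and 0.60 for Hspa8. These values stood at the 98.7th, 97.6th, 97.4th, 95.9th and 90.2th percentile of all genes tested in that group, in the same gene order. Hsp90ab1, Hspe1 and Hspd1 had SDs of 0.28, 0.23 and 0.20, at the 63.9th, 53.9th and 48.6th percentile. In WT livers the SD of Dnajb1 was 0.20 (46.7th percentile) and that of Hspa8 was 0.13 (26.6th percentile), while Hspb1 and Hsph1 had 1.08 and 0.44 (98.6th and 82.6th percentile). The ratio of the highest to the lowest library was at least 2 for 6 of 9 genes in SHP-/- livers, against 13.8% of all genes tested, and for 2 of 9 in WT livers, against 12.4%. The largest was 13.9 for Hspa1a in SHP-/- livers, where the lowest library held 4 counts, followed by 5.69 for Dnajb1.

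**Figure D3:**
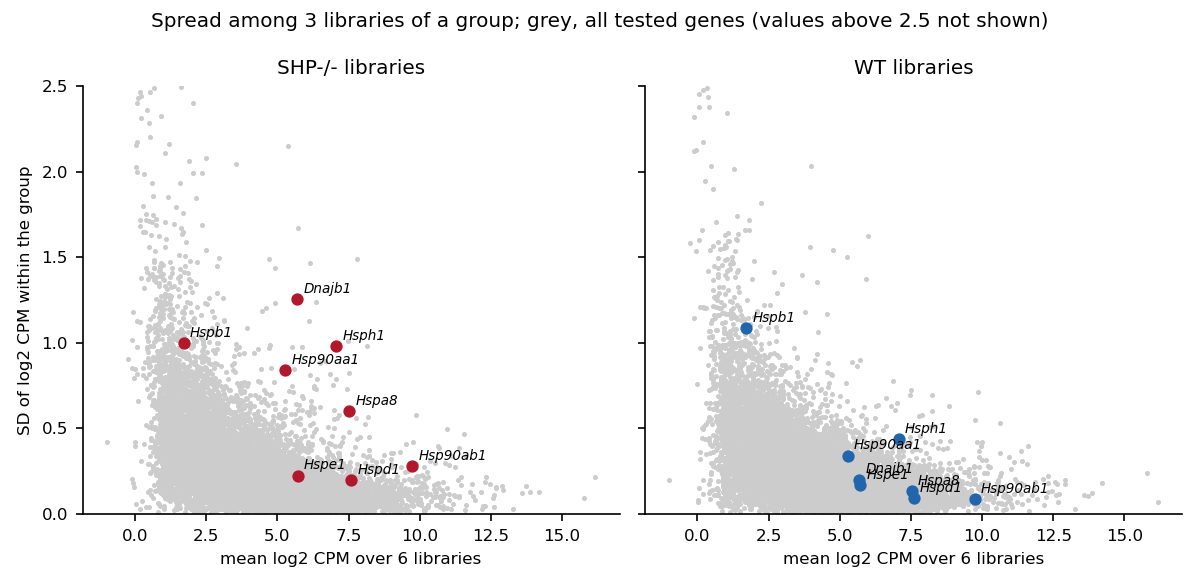
SD of log2 CPM among the 3 libraries of a group (vertical axis) against mean log2 CPM over 6 libraries (horizontal axis), for SHP-/- libraries on the left and WT libraries on the right; grey points are all genes tested and coloured points the 8 heat shock genes. Dnajb1, Hsph1, Hsp90aa1 and Hspa8 lie above most genes of like level in the SHP-/- panel, at SDs of 1.26, 0.98, 0.84 and 0.60.

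WT libraries were ordered less uniformly. WT library 1 was the lowest WT library for 7 of 9 genes, against 33.2% of all genes tested, and WT library 3 was the lowest for Dnajb1 and Hspe1. WT library 2 was the highest WT library for every gene except Hspa1a and Hspd1, for which WT library 3 was the highest. How often WT library 2 was the highest over all genes was not computed. Per kilobase of exon, the WT means ran from 296 ± 17.5 CPM for Hsp90ab1 through 72.8 ± 4.69 for Hspd1, 44.8 ± 4.19 for Hspa8, 39.7 ± 4.53 for Hspe1, 15.9 ± 4.69 for Hsph1, 15.2 ± 2.21 for Dnajb1, 9.82 ± 2.18 for Hsp90aa1 and 2.37 ± 1.50 for Hspb1 to 0.494 ± 0.275 for Hspa1a (SD, n = 3). The WT values of neighbours in this order overlapped for Hspa8 and Hspe1, for Hsph1 and Dnajb1, and for no other neighbours. The SHP-/- means were 279 ± 53.0 CPM per kilobase for Hsp90ab1, 80.9 ± 10.8 for Hspd1, 48.1 ± 18.1 for Hspa8, 47.5 ± 39.0 for Dnajb1, 37.5 ± 5.58 for Hspe1, 27.1 ± 14.3 for Hsph1, 11.0 ± 5.46 for Hsp90aa1, 5.53 ± 3.89 for Hspb1 and 2.01 ± 1.80 for Hspa1a. Relative to Hspa8, Dnajb1 stood at 0.691, 1.41 and 0.558 per kilobase in SHP-/- libraries 1, 2 and 3, all above the 0.337, 0.359 and 0.322 of the WT libraries. The groups overlapped for Hsph1 relative to Hspa8 (0.640, 0.584 and 0.379, against 0.270, 0.417 and 0.365). They also overlapped for Hspa1a (0.0370, 0.0600 and 0.00970, against 0.00425, 0.0131 and 0.0153). How often such ratios separate over all genes was not computed. Levels per kilobase also depend on how reads shared with other genes, described below, were placed. They depend on the exon length used as well. The deposited length was 7042 bases for Hsph1, 4066 for Hspa8, 1362 for Hspe1 and 2165 for Dnajb1. The longest coding transcript of a later annotation had 3802, 2394, 774 and 2996 bases. The order of the genes and the size of ratios between genes can thus change with the length, but not the comparison of libraries within a gene.

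Reads of 36 bases cannot be placed with certainty where a gene has near-identical copies, so each transcript was divided into 36-base windows and compared with the transcripts of all other genes of a later annotation. The share of windows found in another gene was 0 for Hsph1, 0.946% for Dnajb1 and 10.8% for Hsp90ab1. It was 52.2% for Hspd1, 54.7% for Hspe1, 56.5% for Hspb1, 61.6% for Hsp90aa1, 69.2% for Hspa1a and 78.3% for Hspa8. Hsph1 and Dnajb1 thus had the smallest shares.

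For 3 genes a pseudogene row held counts of the same order as the gene itself, fewer than the gene in some libraries and more in others for Hspe1-ps2 and Gm12346, and fewer in all for Hspd1-ps3. Hspd1-ps3, which carries 49.4% of the windows of Hspd1, had 147, 143 and 132 CPM in SHP-/- libraries 1, 2 and 3, against 161, 183 and 183 CPM in the WT libraries, a log2 difference of -0.32 ± 0.10 (limma voom adjusted p = 0.0548). Every SHP-/- library was below every WT library for this pseudogene, as for 17.9% of all genes tested, whereas the Hspd1 values themselves overlapped. Gm12346, a pseudogene of Hsp90aa1 with 55.4% of its windows, had 42.5, 54.2 and 24.7 CPM in the SHP-/- libraries, against 24.4, 38.2 and 33.8 CPM in the WT libraries, a profile like that of Hsp90aa1. Hspe1-ps2, which carries 6.90% of the windows of Hspe1, had 54.8, 73.4 and 50.2 CPM in the SHP-/- libraries, against 42.0, 59.9 and 43.8 CPM in the WT libraries. Counts of Hspd1 summed with its 2 pseudogene rows gave 363, 368 and 305 CPM in SHP-/- livers and 331, 373 and 375 CPM in WT livers, and a log2 difference of -0.06 ± 0.11 (limma voom adjusted p = 0.737). Summed values of Hsp90aa1 and of Hspe1 differed by 0.16 ± 0.27 (limma voom adjusted p = 0.727) and 0.10 ± 0.14 (adjusted p = 0.681). The sign of these 3 small differences thus depended on whether the pseudogene rows were counted in, and 0 of the 3 were called by limma voom either way.

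**Figure D4:**
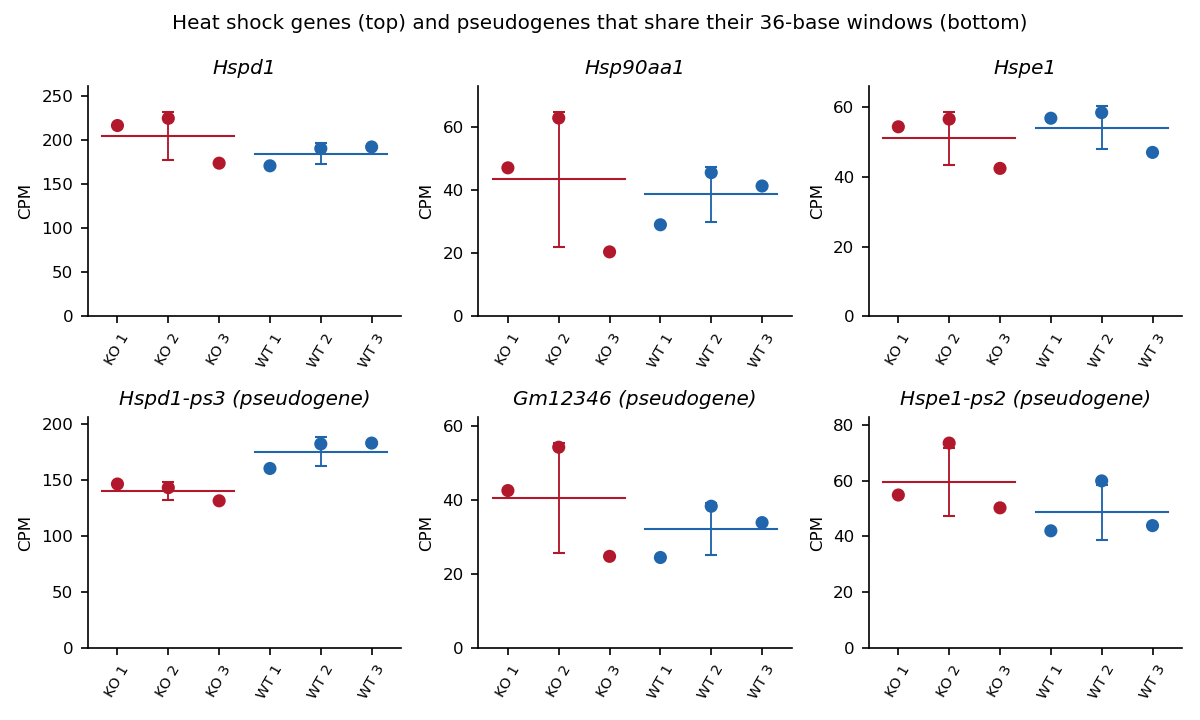
CPM (vertical axes, linear, each from 0) of Hspd1, Hsp90aa1 and Hspe1 above and of 1 pseudogene of each below, in 3 SHP-/- (KO, red) and 3 WT (blue) libraries, with group means and SD (n = 3). Hspd1-ps3 lies at 132 to 147 CPM in SHP-/- livers and at 161 to 183 CPM in WT livers, while the parent gene overlaps between the groups.

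Promoter sequences were read from RefSeq (GRCm38.p6) as windows from 250 bases before to 50 bases after the start site, and 7 of the 10 genes had an entry; Hspa8, Hsp90aa1 and Hsp90ab1 had none. They were searched on both strands for the heat shock element in a strict form, as 2 inverted units (GAANNTTC or TTCNNGAA) and as 3 units (GAANNTTCNNGAA or TTCNNGAANNTTC), so that each match of 3 units also contains matches of 2. A match of 2 units was in a window of 6 of the 7 genes, against 17.0% of the 27025 genes with an entry, and a match of 3 units was in Hspd1, Hspe1 and Hsph1, against 0.662% of those genes. These members are not independent counts. The windows of Hspa1a and Hspa1b are near copies, and those of Hspd1 and Hspe1 overlap and hold the same run of units. Counted by window, 15.1% of all 32851 windows held 2 units and 0.603% held 3. A match is a description of the letters and not a measured binding site. Below, capitals mark the matches. The windows of Hspe1 (chr1:55087898-55088197, + strand), Hsph1 (chr5:149636287-149636586, - strand), Hspb1 (chr5:135887669-135887968, + strand), Hspa1a (chr17:34972107-34972406, - strand) and Dnajb1 (chr8:83607925-83608224, + strand) are shown because they span the range from overlapping 3-unit matches to no match, and because Hsph1 and Dnajb1 had the largest spread among abundant members.
Hspe1: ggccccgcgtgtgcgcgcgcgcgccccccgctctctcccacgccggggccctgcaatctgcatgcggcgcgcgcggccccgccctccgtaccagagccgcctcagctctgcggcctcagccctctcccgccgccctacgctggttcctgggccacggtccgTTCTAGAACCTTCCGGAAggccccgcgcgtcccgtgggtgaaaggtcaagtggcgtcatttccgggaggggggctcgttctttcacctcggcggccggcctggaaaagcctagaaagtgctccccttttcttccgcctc
Hsph1: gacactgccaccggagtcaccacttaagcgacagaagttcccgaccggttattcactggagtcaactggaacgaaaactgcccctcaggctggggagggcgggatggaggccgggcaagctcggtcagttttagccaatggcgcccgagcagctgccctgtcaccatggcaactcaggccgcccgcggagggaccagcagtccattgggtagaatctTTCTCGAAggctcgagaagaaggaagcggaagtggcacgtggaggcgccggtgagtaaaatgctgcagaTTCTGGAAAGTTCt
Hspb1: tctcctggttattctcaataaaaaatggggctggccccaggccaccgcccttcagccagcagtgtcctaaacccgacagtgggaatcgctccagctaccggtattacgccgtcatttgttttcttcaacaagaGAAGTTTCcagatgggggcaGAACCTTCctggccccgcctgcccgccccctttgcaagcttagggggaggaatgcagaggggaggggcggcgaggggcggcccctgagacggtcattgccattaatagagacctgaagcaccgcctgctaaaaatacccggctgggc
Hspa1a: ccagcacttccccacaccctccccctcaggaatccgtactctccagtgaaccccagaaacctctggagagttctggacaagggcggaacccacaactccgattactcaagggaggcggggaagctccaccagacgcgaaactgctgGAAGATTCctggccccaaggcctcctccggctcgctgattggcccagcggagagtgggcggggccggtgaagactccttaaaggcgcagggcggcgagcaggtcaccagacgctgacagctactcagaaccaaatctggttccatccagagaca
Dnajb1: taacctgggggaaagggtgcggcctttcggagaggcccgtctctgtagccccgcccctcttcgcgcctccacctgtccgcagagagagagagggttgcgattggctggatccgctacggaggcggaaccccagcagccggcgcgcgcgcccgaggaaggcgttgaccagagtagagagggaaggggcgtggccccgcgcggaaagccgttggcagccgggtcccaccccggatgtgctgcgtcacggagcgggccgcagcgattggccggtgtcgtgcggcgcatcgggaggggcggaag

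The Hspe1 window held 4 alternating units in 1 run that began at position -89 relative to its start site. The same letters, read on the other strand, lay in a window of Hspd1 that overlapped the Hspe1 window by 285 bases. Hspd1 and Hspe1 varied least among SHP-/- libraries. In Hsph1 a 2-unit match began at position -33 and a 3-unit match at position 36, downstream of this start site. Hspb1 held 2 separate 2-unit matches at positions -117 and -97, and Hspa1a 1 at position -104. The windows of Hspa1a and Hspa1b differed at 4 of 300 positions (C44T, T47C, T249G and C276T, Hspa1a base first, counted from 1 at the 5′ end of the window), none of which fell in the match. Dnajb1, which had the widest spread of the tested genes in SHP-/- livers, had no match of this strict form in either of its windows. Looser forms and bases outside the windows were not searched, and Hspa8, Hsp90aa1 and Hsp90ab1 had no window. Whether the matches bear on the spread among libraries was not tested.

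Related genes were read from lists of the same network. Over 8 lists of other chaperones, cochaperones, heat shock factors and further HSF1 targets, 7 of 87 genes tested were higher and 3 were lower in SHP-/- livers, with a median log2 difference of 0.02, against 7.58% and 6.94% over all genes. Of 8 other HSP70 and HSP110 genes, 0 were higher and 1 was lower: Hspa9, the mitochondrial HSP70, averaged 447 ± 23.2 CPM in SHP-/- livers and 572 ± 32.6 CPM in WT livers (SD, n = 3 each; log2 difference -0.36 ± 0.10, limma voom adjusted p = 0.0256, called in 3 of 6 fits that left out 1 library). Hspa4, an HSP110 relative, had a log2 difference of -0.21 ± 0.13 (adjusted p = 0.296). Of 16 J-domain genes, 0 were called either way by limma voom; Dnaja3, the mitochondrial J-domain protein, averaged 126 ± 10.1 CPM in SHP-/- livers and 122 ± 19.7 CPM in WT livers, and Dnaja2 had the smallest adjusted p, 0.0637, with a log2 difference of -0.38.

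Of 21 nucleotide exchange factors of HSP70 and cochaperones of HSP90, 3 were higher and 1 was lower. Fkbp5, a cochaperone of HSP90 on steroid receptors and a classic glucocorticoid target, had 98.2, 74.8 and 74.6 CPM in SHP-/- libraries 1, 2 and 3, against 49.1, 50.7 and 51.1 CPM in the WT libraries. Every SHP-/- library exceeded every WT library, and the difference (0.69 ± 0.13, limma voom adjusted p = 0.00439) was called in 6 of 6 fits that left out 1 library. Bag6, listed as Bat3, averaged 103 ± 2.40 CPM in SHP-/- livers and 79.5 ± 10.9 CPM in WT livers (0.38 ± 0.12, adjusted p = 0.0478, called in 1 of those 6 fits). St13, the HSP70-interacting protein Hip, averaged 145 ± 6.06 CPM in SHP-/- livers and 193 ± 22.9 CPM in WT livers (-0.41 ± 0.11, adjusted p = 0.0250, called in 2 of 6). The third that was higher was Hspbp1 (1.10 ± 0.35, adjusted p = 0.0495), an exchange factor that was named after its value was seen. Fkbp4, the relative of Fkbp5, had a difference of 0.01 ± 0.11 (adjusted p = 0.977).

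Among 14 subunits of the TRiC chaperonin and prefoldin, 1 was higher, Cct7, with 89.3 ± 10.5 CPM in SHP-/- livers and 64.5 ± 12.4 CPM in WT livers (0.48 ± 0.14, limma voom adjusted p = 0.0390, called in 2 of 6 fits without 1 library), while its partner subunit Cct8 had -0.16 ± 0.12 (adjusted p = 0.403). Of 12 mitochondrial chaperones and proteases, 1 was higher and 1 was lower. Clpp, the proteolytic subunit of the matrix protease ClpXP, averaged 46.9 ± 7.28 CPM in SHP-/- livers and 29.5 ± 6.23 CPM in WT livers (0.68 ± 0.17, adjusted p = 0.0156, called in 4 of 6), and its unfoldase partner Clpx had 0.36 ± 0.15 (adjusted p = 0.111). Yme1l1, an inner-membrane protease, had 116, 113 and 108 CPM in SHP-/- libraries 1, 2 and 3, against 160, 180 and 176 CPM in the WT libraries (-0.61 ± 0.10, limma voom adjusted p = 0.00203, called in 6 of 6). The 4 tested small heat shock genes other than Hspb1 gave 0 calls by limma voom, Hspb8 with 155 ± 28.2 CPM in SHP-/- livers and 123 ± 22.3 CPM in WT livers being the most abundant (0.33 ± 0.15, adjusted p = 0.153).

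Hsf1 itself, the factor that drives the inducible members, was 1 of 5 heat shock factors and regulators tested and the only one called. It had 16.4, 19.0 and 19.2 CPM in SHP-/- libraries 1, 2 and 3, against 13.1, 10.8 and 9.21 CPM in the WT libraries (0.75 ± 0.20, limma voom adjusted p = 0.0249, called in 2 of 6 fits without 1 library). SHP-/- library 3, the lowest for all 9 heat shock genes, was the highest for Hsf1. Hsbp1, a binding protein of HSF1, had 0.01 ± 0.14 (adjusted p = 0.962). Of 14 other HSF1 targets, 1 was higher and 0 were lower: Zfand2a, which links arsenite and heat stress to the proteasome, had 17.1, 22.4 and 14.6 CPM in SHP-/- libraries 1, 2 and 3, against 4.95, 9.98 and 10.5 CPM in the WT libraries (1.12 ± 0.28, adjusted p = 0.0192, called in 4 of 6). Sqstm1, the autophagy receptor p62, averaged 484 ± 8.84 CPM in SHP-/- livers and 478 ± 47.8 CPM in WT livers.

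The library order of the heat shock genes was also found in most of the other HSF1 targets. SHP-/- library 2 was the highest SHP-/- library for 13 of these 14 genes and SHP-/- library 3 the lowest for 12 of 14, against 33.0% and 32.0% of all genes tested. Such rank counts include near ties, as for Sqstm1 with 489 and 490 CPM in SHP-/- libraries 1 and 2. Bag3, a partner of HSP70 in autophagy, had 22.2, 47.3 and 18.9 CPM in SHP-/- libraries 1, 2 and 3, against 16.7, 25.6 and 22.9 CPM in the WT libraries, and Dnaja1, a J-domain protein of the cytosol, had 50.9, 67.9 and 24.8 CPM, against 35.7, 51.6 and 57.8 CPM; both were chosen after their values were seen. The genes whose profile over the 6 libraries was nearest to the mean of the 8 tested heat shock genes, among 5510 genes with at least 20 CPM, were sought by root-mean-square difference of centred log2 CPM. Among the nearest were Gm12346 (0.088), P4ha1 (0.094), Hspa4l (0.167), Ccdc117 (0.168) and Pfkfb3 (0.171), against a median of 0.498. Gm12346 is the Hsp90aa1 pseudogene described above and shares windows with it, and Hspa4l belongs to the list of HSF1 targets. P4ha1, a collagen prolyl hydroxylase subunit, had 48.0, 59.9 and 26.3 CPM in SHP-/- libraries 1, 2 and 3, against 27.0, 45.3 and 32.4 CPM in the WT libraries.

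Other lists moved with the same libraries in part. Of 13 immediate early genes, 5 were higher and 0 were lower in SHP-/- livers, against 7.58% and 6.94% of all genes tested. SHP-/- library 2 was the highest and SHP-/- library 3 the lowest SHP-/- library for 12 of the 13 genes in each case. Their summed level was 625, 1959 and 420 CPM in SHP-/- libraries 1, 2 and 3, against 258, 251 and 472 CPM in the WT libraries. Myc, a growth transcription factor, averaged 29.5 ± 6.94 CPM in SHP-/- livers and 7.78 ± 7.78 CPM in WT livers (SD, n = 3 each; 2.26 ± 0.43, limma voom adjusted p = 0.00434, called in 5 of 6 fits without 1 library). The AP-1 subunits Jund (0.72 ± 0.16, adjusted p = 0.00934, called in 6 of 6) and Junb (2.04 ± 0.55, adjusted p = 0.0246, called in 3 of 6) were also higher by limma voom. The call of Junb was lost with robust variance moderation (SE 0.95, limma voom adjusted p = 0.246). Egr1, an immediate early zinc finger factor that did not pass (2.11 ± 0.90, limma voom adjusted p = 0.13), had 59.6, 456 and 24.8 CPM in the SHP-/- libraries, against 18.6, 13.7 and 27.0 CPM in the WT libraries. Of 16 chaperones of the endoplasmic reticulum, 0 were called by limma voom, with P4hb, a disulfide isomerase, at 1228 ± 176 CPM in SHP-/- livers and 1114 ± 195 CPM in WT livers; SHP-/- library 3 was the lowest SHP-/- library for 14 of 16, but SHP-/- library 2 the highest for 3 of 16, so the library order differed from that of the heat shock genes. The 2 cold-inducible genes gave 0 calls, and of 13 core clock genes 1 was higher, Nr1d1 (0.61 ± 0.13, adjusted p = 0.00889), and 1 was lower, Hlf (-0.99 ± 0.13, limma voom adjusted p = 0.00056).

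**Figure D5:**
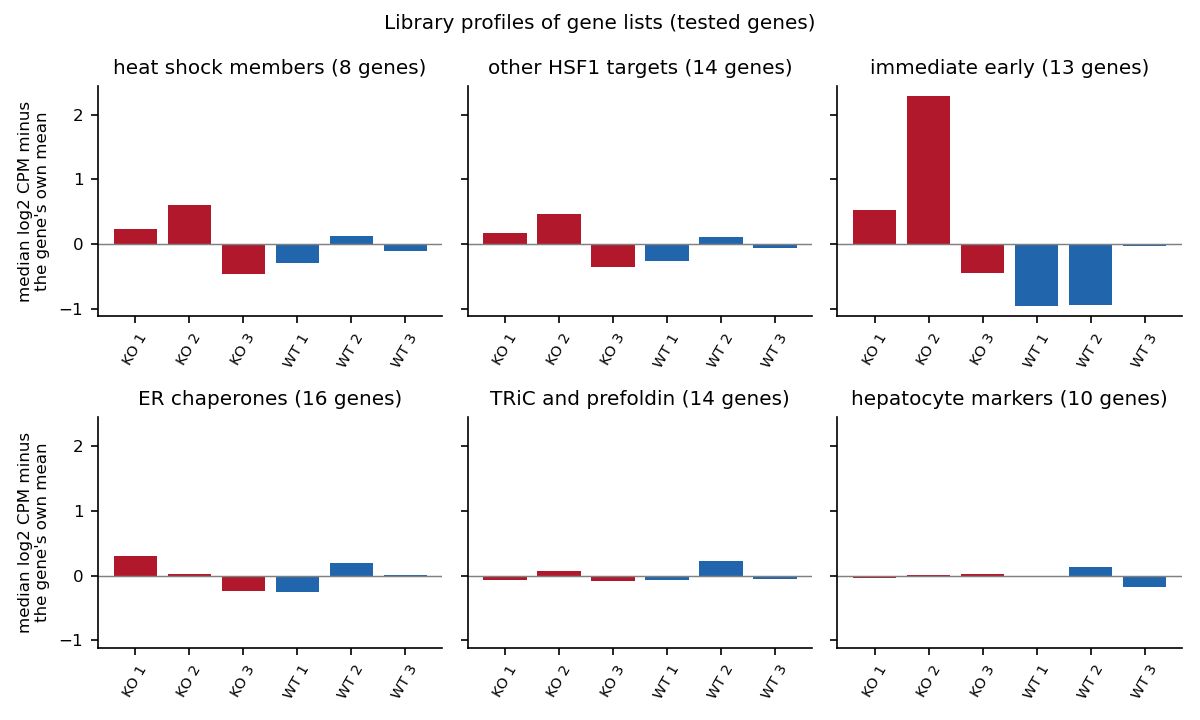
Median over the tested genes of a list of log2 CPM minus the gene's own mean over 6 libraries (vertical axes), in 3 SHP-/- (KO, red) and 3 WT (blue) libraries. In SHP-/- libraries 1, 2 and 3 the median is 0.23, 0.61 and -0.46 for the heat shock genes, 0.18, 0.47 and -0.35 for other HSF1 targets and 0.53, 2.28 and -0.46 for immediate early genes.

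Markers of other cell types also differed between libraries. Stellate cell and fibroblast markers summed to 211, 422 and 413 CPM in SHP-/- libraries 1, 2 and 3, against 405, 352 and 362 CPM in the WT libraries, and sinusoidal endothelial markers to 401, 617 and 606 CPM, against 654, 601 and 655 CPM. Cholangiocyte markers summed to 40.6, 75.8 and 54.8 CPM in the SHP-/- libraries, against 62.9, 61.1 and 62.7 CPM in the WT libraries. These 3 lists were lowest in SHP-/- library 1 and not in library 3. Kupffer cell markers summed to 437, 670 and 601 CPM in the SHP-/- libraries, against 488, 505 and 431 CPM in the WT libraries, with 3 of 12 higher. Erythroid markers, at 210, 195 and 333 CPM in the SHP-/- libraries and 222, 206 and 195 CPM in the WT libraries, were highest in SHP-/- library 3. The share of counts from the mitochondrial genome was 7.10%, 6.75% and 5.66% in SHP-/- libraries 1, 2 and 3, against 10.3%, 10.2% and 10.2% in the WT libraries. Whether any of these differences had a part in the heat shock values was not tested.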

How the data were processed

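Per the submitters' processing notes, Novoalign 2.05.33 and mm9 were used for alignment; no source used here names the counter, its use of strand or its treatment of reads with several alignments. The authors deposited whole-number counts per gene and library, with RPKM and a log2 ratio for pooled groups. Of 33495 genes, 13901 had empty cells and were left out. Of counts from 1 to 19, 61.8% were even, so mates may often be counted separately and the counts are not independent fragments. A gene was tested when 3 libraries reached 1.83 CPM (10 counts at the median library) and its total reached 15, which left 11794 genes.

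Scaling factors were trimmed means of M values (0.965 to 1.03), with code written here and tested on simulated data, and CPM use these sizes. Counts were fitted with limma 3.58.1 (voom, genotype only) in R 4.3.3, two-sided, with Benjamini-Hochberg adjustment over all genes tested and a threshold of 0.05. Early line ends in the table kept count-only packages from being used. Python 3.11.15, pandas 2.3.3 and matplotlib 3.10.9 were used. Exon lengths were those the authors deposited for each gene. RPKM recomputed from these lengths and the pooled counts matched the deposited RPKM. Other scalings, no filter, limma trend, robust moderation, a replicate block and each library left out were alternatives; summing pseudogene rows that share at least 1% of the windows was added after the data were seen.

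The series describes 3 mice per genotype. The p-values set the genotype difference against the spread between those mice, with the variance of each gene moderated over all genes tested. The members and lists were chosen with earlier results of these data known. Named are all members and Nr0b2, from each list up to 3 genes past the threshold and the most abundant other, and the 6 genes of nearest profile, of which 1 is not reported here; some genes this rule names in the marker and clock lists are given only as counts. Current names came from a GRCm38 annotation, used for names and transcript windows only.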

Additional observations from a re-analysis of the deposited data

How the results depend on the processing

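The count of heat shock genes higher in SHP-/- livers was 0 with library totals, median-of-ratios factors, no filter, limma trend, robust moderation and summed pseudogene rows, and ranged from 0 to 2 when each library was left out (2 without SHP-/- library 3); 0 were lower in every fit. With the replicate number as a block, 1 was higher, Dnajb1 (log2 difference 1.43, limma voom adjusted p = 0.00609), and the call of Nr0b2 was lost (-0.79, adjusted p = 0.0552). Over all genes tested, libraries of equal number did not deviate together (correlations of same-numbered pairs -0.02, -0.02 and -0.02). Pairs of unequal number had correlations of -0.0066 to 0.030. Correlations over all genes cannot show a pairing that acts on some genes only, and the labels do not say whether the numbers pair the mice. Most heat shock genes were highest in library 2 of both groups, but were lowest in SHP-/- library 3 and mostly in WT library 1. Leaving out 1 library gave log2 differences of 0.60 to 1.93 for Dnajb1, 0.27 to 1.20 for Hsph1, 0.52 to 1.74 for Hspb1, 0.08 to 0.26 for Hspd1, -0.22 to 0.37 for Hspa8, -0.37 to 0.54 for Hsp90aa1, -0.23 to 0.046 for Hsp90ab1 and -0.20 to 0.0497 for Hspe1. Hsp90aa1 had 0.0489 by limma trend, 0.0668 with the block and 0.16 with summed pseudogene rows, where Hspd1 had -0.0629 and Hspe1 0.10. Cirbp had -0.000434 by limma trend. Ranges without 1 library also crossed 0 for Fkbp4 (-0.0496 to 0.0976), Hsbp1 (-0.14 to 0.12), Gm12346 (-0.0102 to 0.62), Cirbp (-0.20 to 0.27), Alb (-0.0523 to 0.19), Sqstm1 (-0.0495 to 0.10) and Dnaja3 (-0.0186 to 0.19). Leaving out 1 library gave 352 to 828 genes higher and 281 to 796 lower (both lowest without WT library 3), against 894 and 819 with all 6 libraries. In the related lists it gave 2 to 9 higher and 1 to 3 lower. The cause of these shifts was not tested. With 3 mice per group, intervals of the log2 difference were widest for Hspb1, where depth also limits precision, and Dnajb1.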
